A study of Mus musculus with 12 samples.

Results

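Monocytes and neutrophils are white blood cells that are made in the bone marrow and circulate in the blood, and the healthy retina holds few of them. The 8 genes described here are used as marks of their entry into tissue. They are Lyz2, Ccr2, Plac8, S100a8, S100a9, Cd52, Ptprc and Coro1a, taken by name from the 24340 rows of a table of gene expression in mouse retinas, and each of the 8 had a row and a value above 0 in at least 1 library. All mice were p16-3MR animals of 12–16 weeks, whose transgene places a luciferase, a red fluorescent protein and a viral thymidine kinase under the regulatory region of p16Ink4a, a gene that senescent cells express. Ganciclovir (GCV) is turned into a toxic product in cells that make the viral kinase. In each of 6 mice the intraocular pressure (IOP) of one eye was raised to 85–90 mm Hg for 60 min by running saline into the anterior chamber, and the fellow eye was left as the control. The sham treatment of control mice in the study was PBS or vehicle, and which of them mice 3, 4 and 6 had is not stated. GCV was given daily at 25 mg/kg to mice 1, 2 and 5 and not to mice 3, 4 and 6, and the retinas were taken on day 3. This gave 4 groups of 3 libraries, namely control retinas (ctrl), IOP-treated retinas (IOP), control retinas of GCV-treated mice (ctrl-GCV) and IOP-treated retinas of GCV-treated mice (IOP-GCV). All 4 groups carried the transgene, so no group shows what GCV does without it, and the fellow eye shares its animal with the treated one.

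In the response of a tissue to injury, monocytes follow the chemokine CCL2 through its receptor CCR2, leave the vessels and become macrophages. Neutrophils follow other chemokines and carry large stores of calprotectin, the calcium-binding complex of S100A8 and S100A9. Lyz2 encodes the lysozyme of macrophages, monocytes and neutrophils, Plac8 a small cysteine-rich protein that is abundant in monocytes and granulocytes, and Cd52 a small glycoprotein anchored to the surface of leukocytes. Ptprc encodes CD45, the tyrosine phosphatase on the surface of nearly all leukocytes, and Coro1a a coronin that binds actin in these cells. None of these genes belongs to infiltrating cells alone. Microglia, the resident macrophages of the retina, also express several of them.

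Values were fragments per kilobase of transcript, scaled to the library size (FPKM), a unit inferred from the values themselves, and since it is per length the levels of different genes can be compared. By an estimate from the smallest values, about 3960000 fragments stood behind the IOP-treated retina of mouse 6, with 14844 genes above 0, against 6870000 to 9040000 fragments and 16044 to 16593 genes in the other 11 libraries. Rod photoreceptor genes, the defining genes of the retina, summed to 31767 to 58871 FPKM over all libraries. Lens genes were high in some of the dissected retinas, at 7.98 to 44.2 FPKM in ctrl, 109 to 5326 in IOP, 86.1 to 7011 in ctrl-GCV and 3354 to 6755 in IOP-GCV. Groups were compared with limma on log2(FPKM + 1), a scale on which the changes of genes under about 1 FPKM are understated, and calls were made where the p adjusted over the 18509 genes above 0 in at least 1 library was under 0.05. Retinas were sequenced whole, so more cells of a type and more RNA per cell cannot be told apart.

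The 8 genes lie on 7 chromosomes. In RefSeq coordinates of GRCm38.p6, the build also known as mm10, Lyz2 spans chr10:117277541-117282272, Ccr2 chr9:124101918-124109140, Plac8 chr5:100551589-100572253, Cd52 chr4:134093538-134095073, Ptprc chr1:138062859-138175756 and Coro1a chr7:126699774-126704816. S100a8 (chr3:90669071-90670034) and S100a9 (chr3:90692630-90695721) are neighbours on opposite strands. Their promoters, 250 bases before to 50 bases after the RefSeq start site, are shown because the genes encode the partners of one complex. Capitals mark matches to GAGGAAG, a core of the sites of the myeloid factor PU.1, and to TTGCNNAA, a core of C/EBP sites, both searched on either strand.
S100a8, chr3:90668821-90669120, plus strand: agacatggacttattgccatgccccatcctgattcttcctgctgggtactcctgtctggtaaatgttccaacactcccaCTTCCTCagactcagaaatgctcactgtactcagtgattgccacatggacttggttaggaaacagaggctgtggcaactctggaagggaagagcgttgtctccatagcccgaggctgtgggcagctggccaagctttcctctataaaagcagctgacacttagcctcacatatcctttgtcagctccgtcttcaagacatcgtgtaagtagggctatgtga
S100a9, chr3:90695672-90695971, minus strand: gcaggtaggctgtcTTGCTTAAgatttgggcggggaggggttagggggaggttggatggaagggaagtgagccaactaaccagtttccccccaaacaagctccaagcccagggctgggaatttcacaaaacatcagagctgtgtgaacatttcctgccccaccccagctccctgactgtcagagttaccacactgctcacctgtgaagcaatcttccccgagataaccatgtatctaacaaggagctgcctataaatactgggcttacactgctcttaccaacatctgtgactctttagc
The S100a8 window held the PU.1 letters on the opposite strand, from base -171 relative to the start site, and no C/EBP letters. The S100a9 window held the C/EBP letters from base -236 and no PU.1 letters. Over the 10 promoters listed for 7 of the genes, PU.1 letters stood in 1 and C/EBP letters in 2, the other being a promoter of Plac8, and over all 32851 promoters of the table the shares were 13.6% and 10.8%. These are matches of letters only, and a promoter of Cd52 was not used here.

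IOP elevation was accompanied by higher levels of nearly all of these genes. Over all 6 mice, 7 of the 8 were called higher after IOP elevation, where 6.76% of all genes tested were (12.2% in either direction), and the median log2 fold change of the 8 genes was 2.82 against 0.009 over all genes tested. At an unadjusted p under 0.05 all 8 passed, where 30.3% of all genes did. The exception was Coro1a, with an adjusted p of 0.0518. With the 2 retinas of a mouse treated as a pair, the same 7 genes were called, where 4.83% of all genes were. In 7 of the 8 genes the IOP-treated retina was above its fellow in each of 6 mice, as was found for 10.7% of all genes. Coro1a was higher in 5 of 6. For 5 of the 8, every IOP-treated retina lay above every control retina, where 5.47% of all genes did so, and the exceptions were S100a8, S100a9 and Coro1a.

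**Figure D1:**
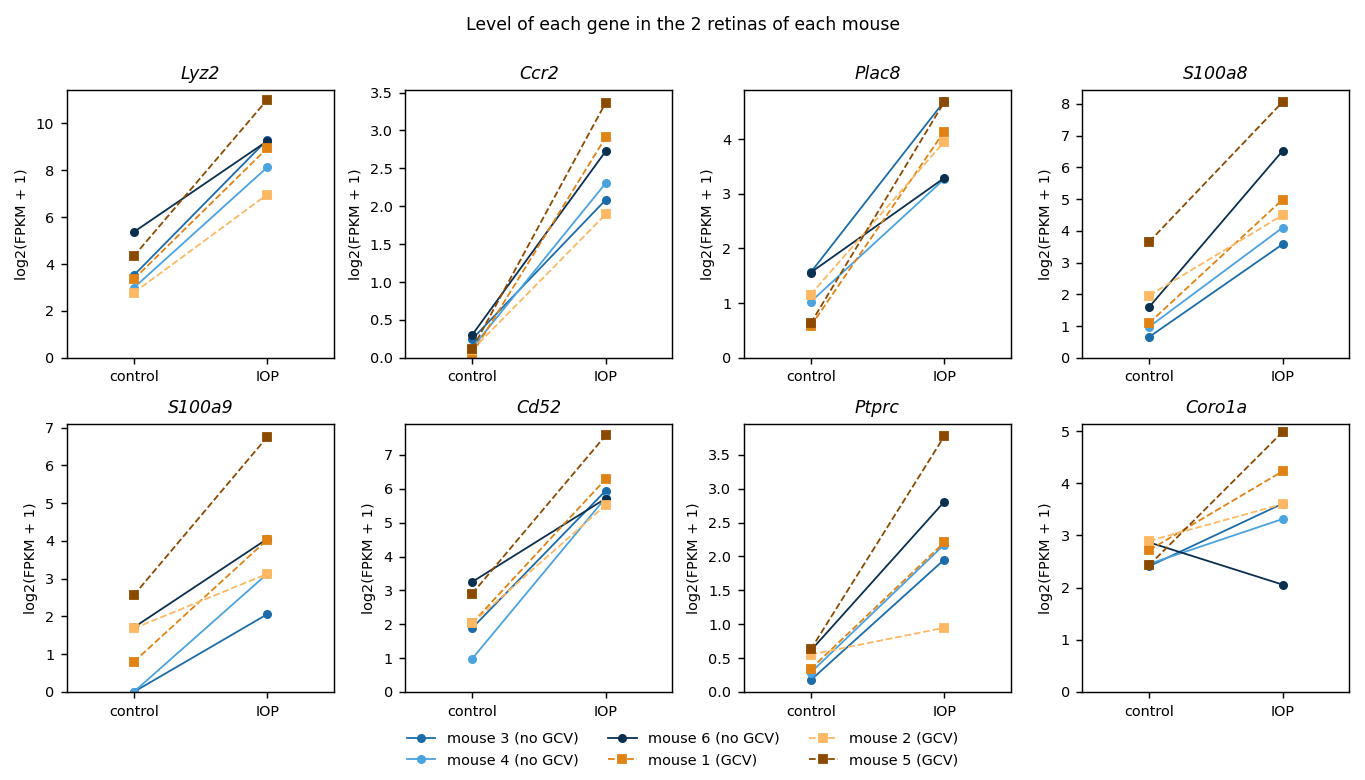
Level of each of the 8 genes, as log2(FPKM + 1), in the control and the IOP-treated retina of each mouse. A line joins the 2 retinas of 1 mouse, solid with circles for mice without GCV and dashed with squares for mice with GCV. Every line rises except that of Coro1a in mouse 6, and mouse 5 has the highest IOP-treated retina in every panel except Plac8, where mouse 3 has.

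Lyz2 was the most abundant of the 8 genes in every IOP-treated retina and made up 54.4% to 84.3% of their summed FPKM there. In mice without GCV it stood at 10.4, 6.90 and 40.1 FPKM in the control retinas of mice 3, 4 and 6 and at 627, 278 and 604 FPKM in their IOP-treated retinas. In mice with GCV it stood at 9.18, 5.84 and 19.1 FPKM in the control retinas of mice 1, 2 and 5 and at 489, 124 and 2049.7 FPKM in their IOP-treated retinas. The groups did not overlap, and the increase was 15.05-fold in mouse 6 at the least and 107-fold in mouse 5 at the most. The log2 fold change over all 6 mice was 5.21 (standard error 0.66, 95% interval 3.74 to 6.67, adjusted p = 0.00139). A part of the Lyz2 transcript cannot be separated from its neighbour Lyz1, since 15.4% of its windows of 50 bases also occur there. Lyz1 itself was low, at 0.171 ± 0.158 FPKM in ctrl, 1.39 ± 0.62 in IOP, 0.0394 ± 0.0683 in ctrl-GCV and 1.42 ± 0.06 in IOP-GCV (SD, n = 3 each).

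Ccr2, the receptor that marks inflammatory monocytes, was almost absent from control retinas. It stood at 0.188, 0.0962 and 0.234 FPKM in the control retinas of mice 3, 4 and 6 and at 3.24, 3.94 and 5.62 FPKM in their IOP-treated retinas. With GCV the control retinas of mice 1, 2 and 5 had 0.0387, 0.0758 and 0.0851 FPKM and the IOP-treated retinas 6.51, 2.72 and 9.31 FPKM. All 6 IOP-treated retinas lay above all 6 control retinas by more than an order of magnitude, and the log2 fold change was 2.39 (standard error 0.22, 95% interval 1.89 to 2.88, adjusted p = 0.00041). The control values rested on an estimated 0.8 to 5.7 fragments per library, so the folds between single retinas are imprecise, while those of the IOP-treated retinas rested on about 52.8 to 229.9.

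Plac8 had the smallest adjusted p of the 8 genes. Without GCV it stood at 1.95, 1.03 and 1.95 FPKM in the control retinas of mice 3, 4 and 6 and at 24.8, 8.63 and 8.76 FPKM after IOP elevation. With GCV it stood at 0.496, 1.23 and 0.55 FPKM in the control retinas of mice 1, 2 and 5 and at 16.6, 14.5 and 24.6 FPKM after IOP elevation. It was the one gene of the 8 whose highest IOP-treated retina was not that of mouse 5. The IOP-treated retinas differed by 2.9-fold between the highest and the lowest, the narrowest range of the 8 genes, and the log2 fold change was 2.92 (standard error 0.27, 95% interval 2.32 to 3.51, adjusted p = 0.000375).

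The calprotectin genes S100a8 and S100a9 rose as well, with a far wider range between mice. S100a8 stood at 0.579, 0.97 and 2.04 FPKM in the control retinas of mice 3, 4 and 6 and at 10.97, 16.2 and 91.1 FPKM in their IOP-treated retinas. With GCV it stood at 1.14, 2.90 and 11.6 FPKM in the control retinas of mice 1, 2 and 5 and at 30.7, 21.6 and 267 FPKM after IOP elevation. Within each treatment the groups did not overlap, although the control retina of mouse 5 was above the IOP-treated retina of mouse 3. The log2 fold change was 3.63 (standard error 0.73, 95% interval 2.02 to 5.25, adjusted p = 0.0142).

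S100a9 was listed at 0 in the control retinas of mice 3 and 4. The other control retinas had 2.26 FPKM in mouse 6, 0.735 in mouse 1, 2.21 in mouse 2 and 4.89 in mouse 5. IOP-treated retinas had 3.16, 7.73 and 15.6 FPKM in mice 3, 4 and 6 and 15.3, 7.73 and 107 FPKM in mice 1, 2 and 5. As for S100a8, mouse 5 was highest in both eyes and mouse 3 lowest after IOP elevation. The log2 fold change was 2.73 (standard error 0.64, 95% interval 1.30 to 4.16, adjusted p = 0.027). This call was lost without the control retina of mouse 3 (adjusted p = 0.0664), mouse 4 (0.0711), mouse 1 (0.0597) or mouse 2 (0.0638). In IOP-treated retinas S100a8 was 2.004 to 5.84 times as abundant as S100a9.

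Of the 3 genes of leukocytes in general, Cd52 had the highest levels in every IOP-treated retina. It stood at 2.70, 0.976 and 8.52 FPKM in the control retinas of mice 3, 4 and 6 and at 60.7, 52.3 and 51.5 FPKM in their IOP-treated retinas. With GCV the control retinas of mice 1, 2 and 5 had 3.10, 3.10 and 6.49 FPKM and the IOP-treated retinas 77.1, 45.0 and 190 FPKM. The lowest IOP-treated retina was thus well above the highest control retina, and the log2 fold change was 3.95 (standard error 0.42, 95% interval 3.02 to 4.87, adjusted p = 0.000633).

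Ptprc, the gene of CD45, was low in both states. It stood at 0.128, 0.219 and 0.526 FPKM in the control retinas of mice 3, 4 and 6 and at 2.87, 3.51 and 5.99 FPKM in their IOP-treated retinas. With GCV it stood at 0.265, 0.466 and 0.544 FPKM in the control retinas of mice 1, 2 and 5 and at 3.61, 0.928 and 12.6 FPKM after IOP elevation. The smallest increase, 1.99-fold, was that of mouse 2, and the others lay between 11.4-fold and 23.2-fold. The log2 fold change was 1.88 (standard error 0.39, 95% interval 1.01 to 2.74, adjusted p = 0.0168).

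Coro1a was already well above 0 in control retinas, at 4.31, 4.48 and 6.29 FPKM in mice 3, 4 and 6 and 5.58, 6.44 and 4.39 FPKM in mice 1, 2 and 5. IOP-treated retinas had 11.2, 8.95 and 3.16 FPKM without GCV and 17.8, 11.1 and 30.7 FPKM with GCV. In 5 of 6 mice the IOP-treated retina was higher, and in mouse 6 it was lower, 0.502-fold of its control. The log2 fold change of 1.00 (standard error 0.30, 95% interval 0.35 to 1.66) did not pass the test (adjusted p = 0.0518), and it passed once the shallow IOP library of mouse 6 (1.24, adjusted p = 0.014) or the IOP library of mouse 2 (1.17, adjusted p = 0.0333) was dropped.

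**Figure D2:**
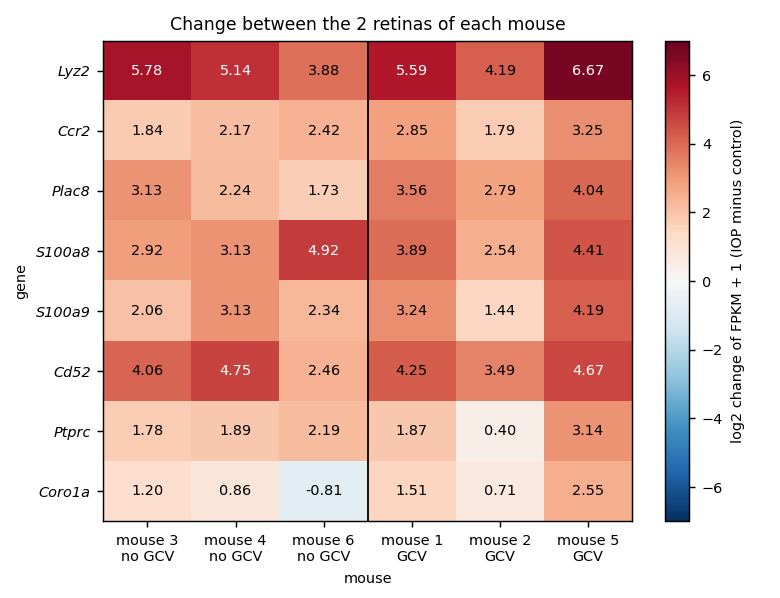
Change in log2(FPKM + 1) from the control to the IOP-treated retina of each mouse for the 8 genes, with mice without GCV left of the line and mice with GCV right of it. Mouse 5 has the largest change in 6 of the genes, mouse 2 or mouse 6 the smallest in all 8, and the one negative value is that of Coro1a in mouse 6 (-0.81).

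After IOP elevation the same mouse was highest in most of the genes, while the lowest mouse varied. The retina of mouse 5 was the highest IOP-treated retina for 7 of the 8 genes. The lowest was that of mouse 2 for 4 genes, of mouse 3 for 2, and of mouse 4 and mouse 6 for 1 each. Summed over the 8 genes, IOP-treated retinas had 744, 379 and 786 FPKM in mice 3, 4 and 6 and 657, 227 and 2690.4 FPKM in mice 1, 2 and 5. The sums of their control retinas were 20.3, 14.7 and 62.0 FPKM and 20.5, 22.3 and 47.7 FPKM in the same order. Mice 6 and 5, which had the highest sums after IOP elevation, thus had the highest sums in the control eye as well.

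The experiment also asked whether removing cells that express the transgene changed the response. Without GCV, 4 of the 8 genes were called higher after IOP elevation, where 1.42% of all genes were (1.65% in either direction), and these were Lyz2 (log2 fold change 4.93, adjusted p = 0.0315), Ccr2 (2.14, adjusted p = 0.0129), Plac8 (2.37, adjusted p = 0.0168) and Cd52 (3.76, adjusted p = 0.0163). With GCV the same 4 genes were called, where 1.65% of all genes were (1.80% in either direction), with log2 fold changes of 5.48 for Lyz2 (adjusted p = 0.0173), 2.63 for Ccr2 (adjusted p = 0.00563), 3.46 for Plac8 (adjusted p = 0.00368) and 4.14 for Cd52 (adjusted p = 0.00864). The median log2 fold change of the 8 genes was 2.44 without GCV and 3.21 with GCV. At an unadjusted p under 0.05, 7 of the 8 passed without GCV, where 18.9% of all genes did, and 8 of 8 with GCV, where 19.2% did. Every IOP-treated retina was above every control retina for 7 of the 8 genes without GCV, where 11.7% of all genes did so, and for 8 of 8 with GCV, where 14.5% did.

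Pairing the retinas of each mouse changed these calls. Without GCV, Lyz2 (adjusted p = 0.0327) and Cd52 (0.0374) were called in the paired fit, where 0.389% of all genes were called higher, and Ccr2 (0.0533) and Plac8 (0.0559) were not. With GCV the paired fit called the same 4 genes and S100a8 (0.0414), where 0.751% of all genes were called higher. Single libraries mattered too. Without GCV none of the 8 genes passed once the control library of mouse 3 or of mouse 4 was left out. The count was 2 after leaving out the IOP library of mouse 3, and 6 after leaving out that of mouse 5, which had received GCV and entered through the shared estimate of the spread. With GCV it was 2 after leaving out the control library of mouse 1 or of mouse 2, and 6 after leaving out the IOP library of mouse 2. The shares of all genes called in these refits are not given here. A loss of calls particular to these genes thus cannot be told from a general one. Over the 12 refits without GCV, log2 fold changes ran from 4.45 to 5.64 for Lyz2 and 3.23 to 4.36 for Cd52. They ran from 1.97 to 2.29 for Ccr2 and 1.89 to 2.61 for Plac8. With GCV these were 4.47 to 6.49 for Lyz2, 3.58 to 4.61 for Cd52, 2.31 to 3.04 for Ccr2 and 3.25 to 3.65 for Plac8.

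Lyz2 lost its call in more of these fits than the other 3 genes. Leaving out each of the 12 libraries in turn, it kept its call 5 times without GCV, and its adjusted p was 0.135 or 0.141 after leaving out the control library of mouse 3 or 4, 0.09 or 0.0846 after leaving out the IOP library of mouse 3 or 6, and 0.0571, 0.0557 or 0.0532 after leaving out the control library of mouse 1, 2 or 5. With GCV it was called in 9 of 12, and lost with an adjusted p of 0.0755, 0.0892 or 0.0545 after leaving out the control library of mouse 1, 2 or 5. Cd52 was lost without GCV after leaving out the control library of mouse 3 (0.0835) or 4 (0.0675) or the IOP library of mouse 3 (0.0539), and with GCV after leaving out the control library of mouse 1 (0.0509) or 2 (0.052). Without GCV, Plac8 was lost after leaving out the control library of mouse 3 (0.0765), 4 (0.0866) or 6 (0.0509), and Ccr2 after leaving out that of mouse 3 (0.0693) or 4 (0.0675). With GCV, Ccr2 and Plac8 were called in 12 of 12 fits.

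**Figure D3:**
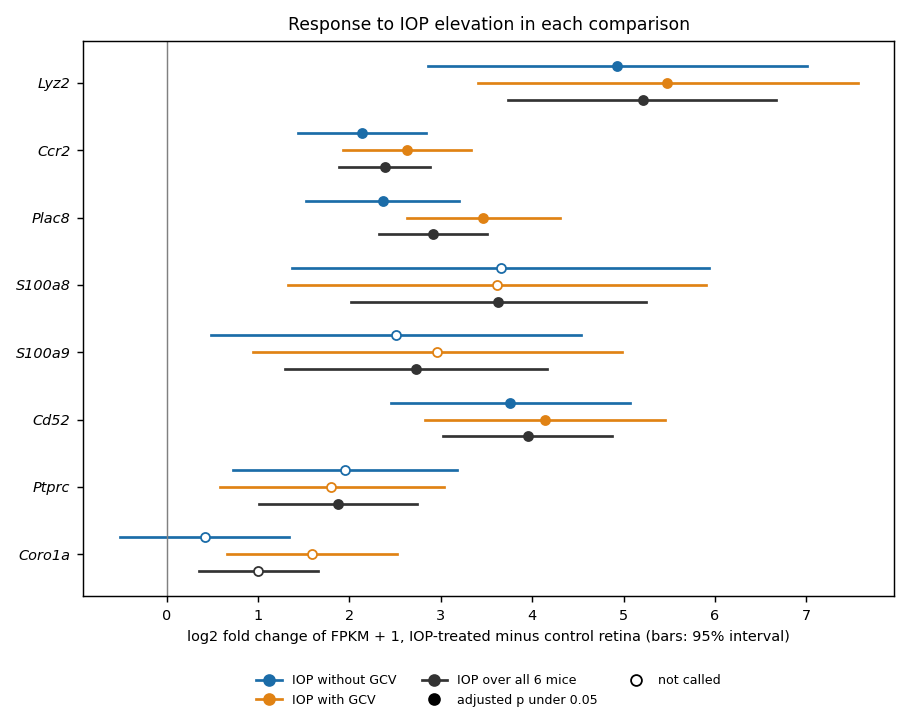
Log2 fold change of FPKM + 1 between IOP-treated and control retinas for the 8 genes, without GCV, with GCV and over all 6 mice, with 95% intervals of the limma fit as bars. Filled points passed an adjusted p under 0.05. The interval of Coro1a without GCV is the only one that includes 0, and the 2 treatments' intervals overlap for every gene.

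The test of the difference itself called none of the 8 genes, and 0% of all 18509 genes, in the plain or in the paired fit. At an unadjusted p under 0.05 it passed 0 of the 8 and 358 (1.93%) of all genes. The estimated difference between the log2 fold changes with and without GCV was positive for 6 of the 8. The largest were those of Coro1a (1.17, 95% interval -0.14 to 2.48) and Plac8 (1.10, 95% interval -0.08 to 2.28). For Lyz2 it was 0.55 with an interval of -2.38 to 3.48, and for S100a8 it was -0.05 with an interval of -3.28 to 3.18, so with 3 mice per treatment even large differences of these genes in either direction lay within the error. The narrowest interval was that of Ccr2, from -0.50 to 1.48.

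Levels in IOP-treated retinas were also compared directly between mice with and without GCV. None of the 8 genes was called and no gene of the table was, while 774 genes (4.18%) had an unadjusted p under 0.05, of which 1 was among the 8. This was Coro1a, at 7.77 ± 4.15 FPKM in IOP and 19.9 ± 9.9 FPKM in IOP-GCV (SD, n = 3 each), a log2 difference of 1.28 (95% interval 0.35 to 2.20, adjusted p = 0.819) that includes the low value of mouse 6. For Ccr2, with 4.26 ± 1.22 FPKM in IOP and 6.18 ± 3.31 FPKM in IOP-GCV, the interval ran from -0.35 to 1.05 and the difference did not pass the test. In control retinas no gene was called between ctrl-GCV and ctrl, none of the 8 reached an unadjusted p under 0.05, and 295 (1.59%) of all genes did. After adjustment the plain fit thus told no groups apart within the IOP-treated or the control state. For S100a8, S100a9, Ptprc and Coro1a it did not tell IOP-treated from control retinas within either treatment either.

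Genes listed as encoding ligands of CCR2 rose with the receptor. These were Ccl2, Ccl7, Ccl8 and Ccl12, and whether each of their products binds CCR2 in the mouse was not examined. Of the 4, 3 were called higher over all 6 mice, in the plain and in the paired fit, where 6.76% and 4.83% of all genes were. Ccl2 stood at 0.127 ± 0.111 FPKM in ctrl, 9.56 ± 2.84 in IOP, 0.22 ± 0.228 in ctrl-GCV and 9.35 ± 8.55 in IOP-GCV (SD, n = 3 each), and its log2 fold change (log2FC) was 3.00 (standard error 0.32, adjusted p = 0.000712). Ccl12 had a log2FC of 2.22 (adjusted p = 0.00103) and Ccl8 one of 2.12 (adjusted p = 0.0258), while Ccl7 at 1.45 did not pass (adjusted p = 0.0538). Ccl12 stood at 0.338 ± 0.352 FPKM in ctrl, 10.6 ± 3.4 in IOP, 1.70 ± 0.37 in ctrl-GCV and 6.49 ± 4.20 in IOP-GCV. The difference between its log2FC with and without GCV was -1.76 (unadjusted p = 0.00708), which did not pass over all genes (adjusted p = 0.997). Of 8 genes for chemokines and cytokines that recruit or raise neutrophils, 1 was called, the interleukin gene Il1b (log2FC 2.55, adjusted p = 0.0137). Cxcl1, a ligand of the neutrophil receptor CXCR2, was listed at 0 in every control retina and had 0.57 ± 0.114 FPKM in IOP and 0.788 ± 1.104 FPKM in IOP-GCV, where 1 of 3 libraries was listed at 0, and it did not pass the test (adjusted p = 0.0714). The same held for Tnf, listed at 0 in every control retina and in 1 IOP-GCV library (adjusted p = 0.209). Cxcl2 (log2FC 0.92, adjusted p = 0.236) and the platelet chemokine gene Ppbp (-0.14, adjusted p = 0.84) did not pass either.

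Most other genes of monocytes and macrophages were called higher as well. Of 28 with a row, 18 were called higher over all 6 mice and none lower, where 6.76% of all genes were called higher, and 16 were called higher in the paired fit, where 4.83% were, with a median log2FC of 1.87. The 1 gene with a negative estimate was Ace (-0.15, adjusted p = 0.654), named after its value had been seen. Ly6c2, a surface protein of classical monocytes, was listed at 0 in 5 of 6 control retinas and had 8.09 ± 3.34 FPKM in IOP and 21.7 ± 17.3 FPKM in IOP-GCV (log2FC 3.55, adjusted p = 0.000836). Ms4a4c rose by a log2FC of 2.27 (adjusted p = 0.000417) and Ms4a6c by 3.05 (adjusted p = 0.000959), both members of a family of membrane proteins of myeloid cells. Fcgr1, the high-affinity Fc receptor of monocytes and macrophages, was called too (2.19, adjusted p = 0.00144). Gpnmb, a glycoprotein of macrophages and pigment cells and the most abundant gene of the list, had a log2FC of 2.72 (adjusted p = 0.0345), and Hp, which encodes haptoglobin, one of 2.69 that did not pass (adjusted p = 0.0527). Of 25 genes of leukocytes in general, 23 were called higher, and 22 in the paired fit. Among the former were Tyrobp (3.17, adjusted p = 0.000955) and Fcer1g (3.78, adjusted p = 0.00275), signaling adaptors of myeloid receptors, and Spi1 (2.58, adjusted p = 0.00128), which encodes PU.1. Cd48, an adhesion molecule of leukocytes (2.61, adjusted p = 0.00141), and Cotl1, which binds actin and was at 51.6 ± 0.7 FPKM in ctrl already (0.95, adjusted p = 0.00323), were called too.

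Genes of the neutrophil gave a mixed picture. Of 27 with a row, 25 were above 0 in some library and 5 were called higher over all 6 mice, namely Lcn2, Itgam, Il1r2, Csf3r and Trem1, of which the paired fit called 4, with a median log2FC of 0.63. The shares of all genes called higher were 6.76% in the plain and 4.83% in the paired fit. Lcn2, the iron-binding lipocalin of neutrophil granules that reactive glia also make, stood at 14.9 ± 4.6 FPKM in ctrl and 178 ± 75 FPKM in IOP (log2FC 3.63, adjusted p = 0.000959). Itgam, which encodes the integrin chain CD11b of neutrophils, monocytes and microglia, had a log2FC of 2.37 (adjusted p = 0.0106) and the decoy receptor gene Il1r2 one of 1.34 (adjusted p = 0.0118). The next most abundant genes after Lcn2 were BC100530 (0.63, adjusted p = 0.542) and the gelatinase gene Mmp9 (0.10, adjusted p = 0.898), neither of which passed the test. Csf3r, the receptor of the granulocyte growth factor, had a log2FC of 1.73 (adjusted p = 0.0157), and Cxcr2, which guides neutrophils, one of 0.97 that did not pass (adjusted p = 0.0821). The granule genes Mpo and Ctsg, which are transcribed mainly in precursors in the bone marrow, were listed at 0 in all 12 libraries, and Elane at no more than 0.175 FPKM. Without Lcn2 the summed FPKM of the list was 12.7 to 21.2 in control retinas and 26.5 to 209 in IOP-treated retinas, and the highest was again that of mouse 5. Ly6g was not analysed here.

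Most genes of resident microglia were called higher. Of 12, 7 were called higher and 1 lower over all 6 mice, where 6.76% and 5.44% of all genes were. The paired fit called 5 higher and 1 lower, where 4.83% and 2.47% of all genes were. The median log2FC was 0.72. The smallest adjusted p were those of Aif1, which encodes the calcium-binding protein IBA1 (log2FC 2.18, adjusted p = 0.000833), Fcrls (1.97, adjusted p = 0.00106) and Trem2, a lipid receptor of microglia and macrophages (2.60, adjusted p = 0.00187). The abundant genes Olfml3 (1.31, adjusted p = 0.0192) and Csf1r, the receptor of macrophage colony-stimulating factor (1.49, adjusted p = 0.0287, and 0.052 in the paired fit), were called higher as well. Cx3cr1, the fractalkine receptor, had a log2FC of 0.89 (adjusted p = 0.014), and Siglech fell by 0.56 on the log2 scale (adjusted p = 0.0145). The 4 genes not called had log2FC values of 0.34 for Gpr34 (adjusted p = 0.266), 0.28 for P2ry12 (adjusted p = 0.196), 0.54 for Tmem119 (adjusted p = 0.0986) and -0.03 for Sall1 (adjusted p = 0.889). The summed FPKM of the microglial list was 2.06-fold to 7.18-fold that of the fellow eye, against 10.2-fold to 56.4-fold for the 8 infiltration genes. Much of the latter sum is Lyz2, and without it the other 7 genes gave 6.31-fold to 22.4-fold. This range overlaps the microglial one only between different mice, at 6.31-fold in mouse 2 against the microglial 7.18-fold in mouse 5. Within each of the 6 mice the fold of the 7 genes was above the microglial fold. It was 6.31-fold against 2.06-fold in mouse 2 and 22.4-fold against 7.18-fold in mouse 5. The fold was largest in mouse 5 and smallest in mouse 2 for all 3 sums.

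**Figure D4:**
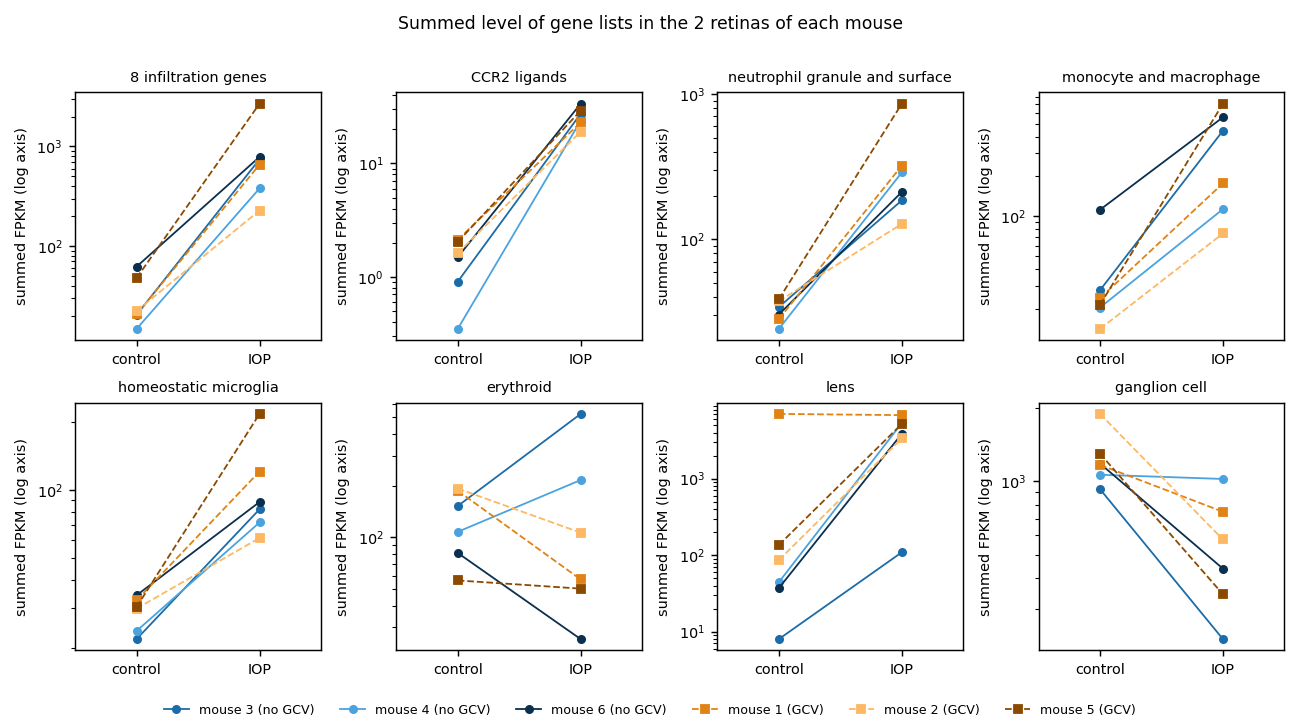
Summed FPKM, on a log axis, of the 8 infiltration genes and 7 gene lists in the control and IOP-treated retina of each mouse, solid with circles for mice without GCV and dashed with squares for mice with GCV. The infiltration genes, CCR2 ligands, neutrophil, monocyte and microglial lists are higher in the IOP-treated retina of all 6 mice, the erythroid list in 2, the lens list in 5 and the ganglion cell list in none.

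Markers of other blood cells and tissues were set beside these results, and their counts read against 6.76% of all genes called higher, 4.83% in the paired fit, and 30.3% with an unadjusted p under 0.05. None of 8 erythroid genes was called by limma (0 had an unadjusted p under 0.05, and the paired fit called 0), and their sum was lower in the IOP-treated than in the control retina of mice 6, 1, 2 and 5 and higher in mice 3 and 4, at 25.6 to 524 FPKM in IOP-treated and 56.2 to 193 FPKM in control retinas. None of 12 T cell genes was called (3 at an unadjusted p under 0.05, and 0 in the paired fit). Of 6 B cell, 7 natural killer cell, 8 dendritic cell and 9 mast cell and eosinophil genes, 1 each was called higher, namely Cd79b, Nkg7, Itgax and Siglecf, of which the paired fit called 1, Itgax. Of 7 platelet genes, Pf4 and Itga2b were called higher and Gp1bb lower, the paired fit called 1 higher and 0 lower, and Pf4 is also a gene of macrophages. Of all genes, 5.44% were called lower, and 2.47% in the paired fit. None of 8 endothelial genes was called (0 at an unadjusted p under 0.05, and 0 in the paired fit), and none of 8 rod genes (1 at an unadjusted p under 0.05, and 0 in the paired fit).

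Lens genes were higher after IOP elevation too. Of 13, 8 were called higher over all 6 mice and 10 in the paired fit, where 6.76% and 4.83% of all genes were. Their part in the result was not tested. Their sums in IOP-treated retinas were 109, 5326 and 3849 FPKM in mice 3, 4 and 6 and 6755, 3354 and 5188 FPKM in mice 1, 2 and 5. The control retinas had 7.98, 44.2 and 37.0 FPKM and 7011, 86.1 and 136 FPKM in the same order, so the lens sum was higher after IOP elevation in 5 of 6 mice. Genes of retinal ganglion cells, the neurons lost in glaucoma, fell in the same comparison, with 8 of 10 called lower over all 6 mice, where 5.44% of all genes were, and 2 in the paired fit, where 2.47% were. Within either treatment alone limma called 0 of the 10, where it called 1.65% of all genes without GCV and 1.80% with GCV in either direction. At an unadjusted p under 0.05, 5 passed without GCV and 9 with GCV, where 18.9% and 19.2% of all genes did. The test of the difference between the treatments passed 0 of the 10 at that threshold, where 1.93% of all genes did.

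The genes most like 7 of the 8 members over the 12 libraries, among 12910 with a mean of at least 1 FPKM, are given as a description of libraries that share treatment and depth. Lyz2 was closest to the membrane protein gene Ms4a7 (Pearson r = 0.997), Cd52 to the microglial gene Fcrls (0.990), Ccr2 to the interferon-induced gene Oas1a (0.996), Plac8 to Parp3 (0.981), Ptprc to Arhgap30 (0.994) and Coro1a to Ddah2 (0.971). S100a9 was closest to S100a8 (0.968).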

How the data were processed

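Retinal mRNA was sequenced as read pairs of 50 bases from a stranded kit. HOMER was used by the authors to count pairs on RefSeq exons. Per the labels, the processing notes also name TopHat2, Bowtie2, Cufflinks, Cuffdiff and mm10, with no role or order. The deposited table holds FPKM values by gene symbol. The unit had to be inferred, as no source states it: 76.4% to 82.1% of low values lay within 0.1 of whole multiples of 1 fragment. Of 24340 rows, 5831 were 0 in all 12 libraries, and 2 row names occurred more than once.

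Groups were taken from the labels. limma 3.58.1 (R 4.3.3) was fitted to log2(FPKM + 1), with 1 mean per group, a variance trend and Benjamini-Hochberg adjustment. The replicate number is the mouse, so the 2 retinas of a number come from the same animal. Deviations from the group means correlated within pairs at r = -0.117 to 0.388 over 12910 genes, and the fit with the mouse as a block is given where it changed a call. Fragments were estimated with 170 bases subtracted from transcripts. Also tried were a pseudocount of 0.1, a filter of 1 FPKM in 3 libraries, median-ratio and quantile scaling, no trend, other thresholds, only the groups compared, and each library left out. The genes described, the lists and the rule for naming genes (per list the 3 smallest adjusted p and the 3 highest levels, with receptors, ligands and paralogs of the 8 genes) were chosen with earlier results of these data known. The rule was applied to the leukocyte, chemokine, neutrophil, monocyte and microglial lists, and of the lists of other cells the text names called genes only. The genes Fcgr1, Csf3r, Cxcr2, Trem1, Cx3cr1, Siglech, Gpr34, P2ry12, Tmem119, Sall1, Mpo, Ctsg and Elane were named after their values had been seen. One further gene of the set and 2 of the lists are not reported here. In the plain fit, p-values rest on a spread between libraries that is pooled over the 4 groups of 3. That fit treats the 2 retinas of a mouse as independent. Promoters are from RefSeq (GRCm38.p6). Figures were drawn with Python 3.11.15 and matplotlib 3.10.9.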

Additional observations from a re-analysis of the deposited data

How the results depend on the processing

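Of the 4 comparisons of the 8 genes with a test of IOP, the count over all 6 mice stayed within 6 to 8 under every alternative run, and the interaction stayed at 0. Without GCV the count of 4 became 2 with the mouse as replicate block and 7 at an unadjusted p under 0.05, and it ranged from 0 to 6 when 1 library was left out. With GCV the count of 4 became 8 at an unadjusted p and ranged from 2 to 6 when 1 library was left out. The shares of all genes called in the refits that left out 1 library are not given here. The count for GCV in IOP-treated retinas became 1 at an unadjusted p. With the mouse as replicate block the count with GCV was 5 and that over all 6 mice 7. With only the groups compared in the fit, Plac8 was not called without GCV (adjusted p = 0.0582), Ptprc was called without GCV (0.0295) and Lyz2 was not called with GCV (0.071). Without GCV, Ptprc was also called with a pseudocount of 0.1 (0.0403). Over all 6 mice Coro1a was called with a pseudocount of 0.1 (0.0498), the filter of 1 FPKM (0.0336) and quantile normalization (0.0354). No fold change of the 8 genes for IOP elevation changed sign under any alternative run. Interactions, none of them called, changed sign for S100a8 under quantile normalization (0.03) and for S100a9 with a pseudocount of 0.1 (-1.22). When 1 library was left out, they ranged from -0.47 to 1.55 for Lyz2, -1.15 to 0.85 for S100a8, -0.61 to 1.20 for S100a9, -0.23 to 0.91 for Cd52 and -0.88 to 0.53 for Ptprc. The causes of these changes were not tested. The values of Ccr2, Ptprc and S100a9 in control retinas rest on few fragments, and the table holds no counts from which intervals could be had.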
